A study of Mus musculus with 34 samples.

Results

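Wild-type ependymal cultures were described here as a baseline, by the levels of ciliary, glial and other gene programs and by how those levels varied and moved together between cultures. The cultures were the 18 libraries of the wild-type siblings in a mouse RNA sequencing study of 34 libraries, chosen by their genotype label: 4 in the Rfx1 line (Rfx1_WT), 8 in the Rfx2 line (Rfx2_WT) and 6 in the Rfx3 line (Rfx3_WT). The other 16 libraries were Rfx1-/- (4), Rfx2-/- (6) and Rfx3-/- (6) siblings and entered a single comparison. All cells came from dissected lateral ventricular walls of embryos at E18.5, late in gestation. They were dissociated and grown to confluency, and differentiation was then induced by 4 days without serum before RNA was extracted. The strain label was C57BL/6, while every title also held the term OF1, which the labels do not explain. Nothing in the labels says whether libraries of a group came from separate embryos or dishes, so each p-value below measures only the spread between libraries. No label gives a batch, a date or a sex, and a line cannot be told apart from its handling, so levels are set side by side by line and no difference between lines is read as biology.

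Ependymal cells line the brain ventricles and carry tufts of motile cilia that move cerebrospinal fluid. They derive from radial glia, which leave the cell cycle, amplify centrioles with the help of deuterosomes and then dock them as basal bodies from which axonemes grow. GEMC1 (Gmnc) and MCIDAS, acting with E2F4, E2F5 and DP1, switch on the centriole program and the transcription factor FOXJ1, and FOXJ1 and RFX factors then drive axonemal genes. Radial glia of the same wall also give rise to astrocytes, for which Gfap is the usual marker, so such cultures hold several cell types.

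Libraries held 19.7 M to 50.9 M counts in Rfx1_WT, 29.1 M to 40.1 M in Rfx2_WT and 24.7 M to 53.4 M in Rfx3_WT, and 16095 to 17245 genes had at least 1 count. The 50.9 M were in Rfx1_WT replicate 4, and the other cultures of that line held at most 21.5 M. Levels are TMM-scaled CPM, counts relative to the size of the library, and levels of different genes are compared only per kilobase of merged exon length (CPM per kb). The lines stood apart as whole libraries: the median of 25 ribosomal protein genes was 104, 8.58 and 98.3 CPM per kb in Rfx1_WT, Rfx2_WT and Rfx3_WT, genes whose reads can be shared with processed pseudogenes. The 4 Y-linked genes counted were present in all 4 Rfx1_WT cultures, with a sum of at least 203 CPM, in 4 of 8 Rfx2_WT cultures and in 2 of 6 Rfx3_WT cultures, and summed to at most 0.320 CPM in the others. In all, 3 libraries stood apart by markers of the oligodendrocyte lineage, namely Rfx2_WT replicates 1 and 2 and Rfx3_WT replicate 6, and the results that rest on them are given with and without them.

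Foxj1 (ENSMUSG00000034227, GRCm38 chr11:116330704-116335399), the transcription factor that marks motile ciliated cells, was abundant in every culture and varied least of the 3 markers. Its level was 1534, 1583, 1801 and 1955 CPM in Rfx1_WT, 814 to 1473 CPM with a median of 1154 in Rfx2_WT and 1445 to 1716 CPM with a median of 1548 in Rfx3_WT. Within Rfx2_WT, replicate 1 was lowest and replicate 3 highest, and in Rfx3_WT all 6 cultures lay close together. The SD of its log2 level was 0.163, 0.255 and 0.0824 in Rfx1_WT, Rfx2_WT and Rfx3_WT. Mcidas (ENSMUSG00000074651, GRCm38 chr13:112993845-113000394), the coregulator that starts multiciliation, stood at 48.8, 68.5, 79.4 and 70.2 CPM in Rfx1_WT, 25.9 to 87.0 CPM with a median of 47.9 in Rfx2_WT and 68.2 to 111 CPM with a median of 93.8 in Rfx3_WT. Rfx1_WT replicate 1, Rfx2_WT replicates 1 and 5 and Rfx3_WT replicate 6 were the low cultures of their lines, and its SD was 0.30, 0.545 and 0.239 on the log2 scale. Gfap (ENSMUSG00000020932, GRCm38 chr11:102887336-102900912), the intermediate filament of astrocytes, had 5274, 1331, 1479 and 3741 CPM in Rfx1_WT, 2587 to 5692 CPM with a median of 4513 in Rfx2_WT and 284 to 2084 CPM with a median of 589 in Rfx3_WT. Its SD was 0.983, 0.424 and 0.977. Rfx1_WT replicates 1 and 4 and Rfx3_WT replicate 6 stood well above the other cultures of their lines. Per kb, the mean levels were 655, 433 and 593 for Foxj1, 28.1, 21.3 and 39.1 for Mcidas and 701, 1028 and 188 for Gfap, in CPM per kb by line in the same order.

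**Figure D1:**
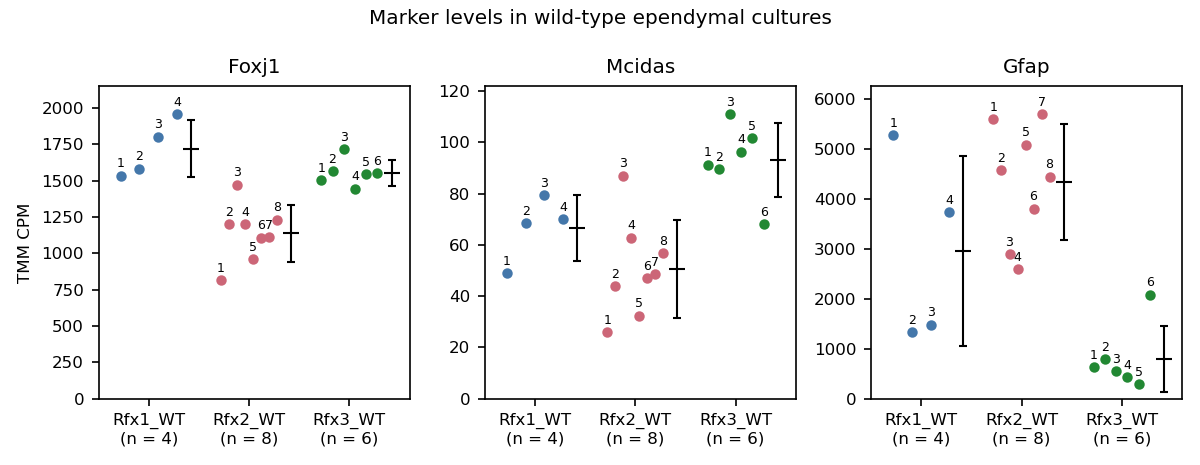
TMM-scaled CPM of Foxj1, Mcidas and Gfap (vertical axes from 0) in each wild-type culture, by line, with points numbered by replicate and bars giving mean and SD. Foxj1 ran from 814 to 1955 CPM over the 18 cultures, and Gfap from 284 to 5692 CPM.

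The labelled cell type was checked by its markers, and motile cilium genes were expressed in every culture. Across all genes kept, the median level was 6.29, 6.38 and 6.37 CPM per kb in Rfx1_WT, Rfx2_WT and Rfx3_WT. In the same order, 79.8%, 81.5% and 80.5% of them were above 1 CPM per kb. The 39 genes for radial spokes, nexin links or the central pair, the parts that coordinate ciliary bending, had medians of 24.2, 23.6 and 24.3 CPM per kb, and all 39 were above 1 CPM per kb in each line. Rsph1, a radial spoke head protein, was the highest of them in Rfx1_WT and Rfx3_WT and had 199.5, 112 and 214 CPM per kb. Among ciliary tubulins, tektins and microtubule inner proteins, the median was 21.7, 16.8 and 25.1 CPM per kb, with Tubb4b, the main beta-tubulin of axonemes, at 509.8, 178 and 535 CPM per kb. Subunits of axonemal dyneins, the motors of ciliary beating, had lower medians of 9.42, 9.53 and 11.3 CPM per kb. The centriole list had 8.92, 8.81 and 10.9 CPM per kb, led by Cetn2, a centrin of centrioles, at 113, 89.7 and 133 CPM per kb. Deup1, the scaffold protein of deuterosomes, reached 68.4, 48.9 and 96.7 CPM per kb. Reads of Dnah7a, Dnah7b and Dnah7c and of Rsph3a and Rsph3b can fall on near-identical copies, and their values are uncertain.

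The median astrocyte marker stood higher per length than the median of every ciliary list. Astrocyte markers had a median of 71.0, 68.0 and 58.5 CPM per kb in Rfx1_WT, Rfx2_WT and Rfx3_WT, and 19 of 22 were above 1 CPM per kb in each line. That count is close to the share of all genes kept, which was 79.8%, 81.5% and 80.5%. Apoe, a lipid carrier that astrocytes secrete, stood at 2070.4, 2423 and 1901 CPM per kb, and Clu, another secreted lipoprotein of glia and ependyma, at 799, 827 and 794 CPM per kb. Vim, the intermediate filament of radial glia, ependyma and reactive astrocytes, had 1775, 1547 and 1239.8 CPM per kb. Radial glia and stem cell genes, which progenitors of the ventricular wall share with astrocytes, had a median of 29.5, 29.5 and 21.9 CPM per kb, with Nes at 216, 117 and 124 CPM per kb. Cell cycle genes were expressed too: the 27 genes of DNA replication and mitosis had a median of 13.8, 8.54 and 10.4 CPM per kb and Top2a, which untangles DNA in mitosis, stood at 38.8, 24.7 and 34.4 CPM per kb. In bulk RNA, fewer cells of a type and less RNA per cell cannot be told apart, here and in all results that follow.

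Other cell types varied between cultures. The 17 microglia markers summed to 107 to 225 CPM in Rfx1_WT, 813 to 2359 CPM in Rfx2_WT and 164 to 959 CPM in Rfx3_WT. C1qa, a complement component made by microglia, had 12.2, 11.9, 15.9 and 5.23 CPM in Rfx1_WT, 67.1 to 215 CPM with a median of 119 in Rfx2_WT and 9.21 to 82.3 CPM with a median of 14.5 in Rfx3_WT, and in Rfx3_WT replicate 6 was the highest. Pdgfra, the receptor that marks oligodendrocyte precursors, named after its values were seen, had 3.92, 4.68, 10.5 and 4.50 CPM in Rfx1_WT, 1.94 to 86.1 CPM with a median of 3.31 in Rfx2_WT and 2.0 to 102 CPM with a median of 2.92 in Rfx3_WT. The high Pdgfra values were 70.4 CPM and 86.1 CPM in Rfx2_WT replicates 1 and 2 and 102 CPM in Rfx3_WT replicate 6. The mean log2 level of 15 oligodendrocyte lineage genes lay above the mean of its line by 1.74, 2.07 and 2.27 in these cultures. Microglia genes were also highest within their lines in Rfx2_WT replicate 1, by 0.80, and Rfx3_WT replicate 6, by 1.94. The median neuroblast and interneuron gene was near the floor, at 0.311, 0.157 and 0.283 CPM per kb. In each line 6 of the 18 genes were above 1 CPM per kb, against 79.8%, 81.5% and 80.5% of all genes kept. Highest was Map2, a microtubule protein, at 30.2, 38.5 and 35.4 CPM per kb. Endothelial genes had medians of 0.0725, 0.111 and 0.0844 CPM per kb, and 1 of the 10 was at 0 in all cultures of each line. Choroid plexus genes had medians of 0.840, 0.50 and 0.452 CPM per kb and summed to 128 to 156 CPM in Rfx1_WT, 118 to 132 CPM in Rfx2_WT and 143 to 161 CPM in Rfx3_WT. Among genes of mural cells and fibroblasts, Acta2, the smooth muscle actin that cultured glia can also express, stood at 1506, 1045 and 1097 CPM per kb, while the list's median was 0.919, 0.667 and 0.594 CPM per kb.

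**Figure D2:**
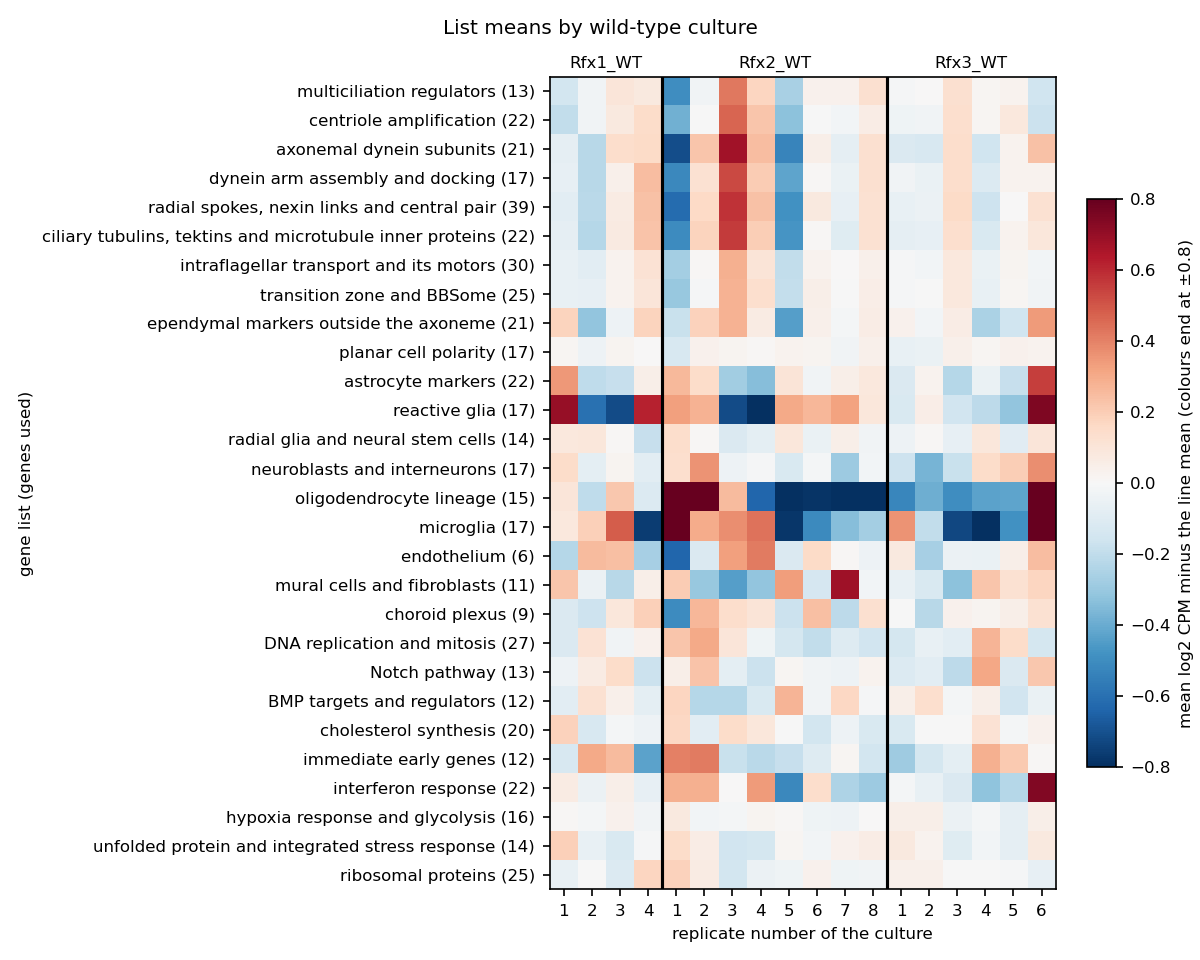
Mean log2 CPM of each gene list (down the side, with the number of genes used) minus the mean of its line, for each wild-type culture (across, by line and replicate). Red is above and blue below the line mean, and colours end at ±0.8. The ciliary lists form a common band, low in Rfx2_WT replicates 1 and 5 and high in replicate 3, while reactive glia genes are high in Rfx1_WT replicates 1 and 4 and Rfx3_WT replicate 6.

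The ciliary lists moved as a band from culture to culture. In Rfx2_WT the mean over 21 axonemal dynein subunits was -0.71 and -0.53 in replicates 1 and 5 and 0.67 in replicate 3, on the log2 scale relative to the line mean. The spoke, nexin and central pair list gave -0.62, -0.48 and 0.58 in the same cultures. Intraflagellar transport, the trafficking system that builds all cilia, spanned less, at -0.27, -0.20 and 0.28. Rfx3_WT replicate 6 parted the band: its centriole list was at -0.17 and its regulator list at -0.16, while axonemal dyneins were at 0.23. In Rfx1_WT, replicate 1 was the lower of the first 2 cultures for centriole genes, with -0.20 and -0.03, and replicate 2 for axonemal dyneins, with -0.07 and -0.22 in replicates 1 and 2. Reactive glia genes, those that astrocytes raise after injury or inflammation, were at 0.70 and 0.62 in Rfx1_WT replicates 1 and 4 and at -0.60 and -0.72 in replicates 2 and 3.

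All 13 regulators at the head of the program were above 1 CPM per kb in each line, beside 79.8%, 81.5% and 80.5% of all genes kept. Gmnc, upstream of Mcidas, had 94.5, 72.7, 67.8 and 70.5 CPM in Rfx1_WT, 164 to 255 CPM with a median of 208 in Rfx2_WT and 104 to 139 CPM with a median of 123 in Rfx3_WT. Ccno, a cyclin-like protein needed for centriole amplification, had 89.2, 95.7, 111 and 130.5 CPM in Rfx1_WT, 47.5 to 138 CPM with a median of 84.1 in Rfx2_WT and 113 to 181 CPM with a median of 155 in Rfx3_WT. For Foxn4, a forkhead factor of multiciliated cells, the values were 18.3, 25.4, 29.6 and 33.6 CPM in Rfx1_WT, 6.49 to 28.9 CPM with a median of 14.7 in Rfx2_WT and 24.3 to 37.8 CPM with a median of 32.6 in Rfx3_WT. Myb, a transcription factor of early multiciliation, ranged over 101 to 232 CPM with a median of 171 in Rfx2_WT, and Trp73, the p73 gene, over 30.4 to 72.8 CPM with a median of 48.1 in Rfx2_WT. The general cofactors E2f4, E2f5 and Tfdp1 had narrower ranges in Rfx2_WT, with 34.7 to 38.6 CPM with a median of 37.0 in Rfx2_WT for E2f4, 23.5 to 27.7 CPM with a median of 25.1 in Rfx2_WT for E2f5 and 50.5 to 54.5 CPM with a median of 53.1 in Rfx2_WT for Tfdp1. Rfx2 and Rfx3 mRNA, which encode the RFX factors deleted in the sibling cultures, were at 84.1 to 126 CPM with a median of 109.9 in Rfx2_WT and 158 to 206 CPM with a median of 171 in Rfx3_WT.

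To ask which genes rise or fall with Foxj1 between cultures of a line, the slope of each gene's log2 level on that of Foxj1 was fitted with edgeR across the 18 wild-type libraries, with line as a term. A slope of 1 means that the gene doubled where Foxj1 doubled, and a gene was called at a Benjamini-Hochberg adjusted p below 0.05 over all genes tested. Ciliary genes rose with Foxj1 almost as a whole. Of 14670 genes tested, 1746 (11.9%) rose and 1398 (9.53%) fell. Against that background, 38 of 39 spoke, nexin and central pair genes rose (median slope 1.48), as did 20 of 21 axonemal dynein subunits (median 1.74), 21 of 22 tubulins, tektins and inner proteins (median 1.41) and 17 of 17 assembly and docking factors of dynein arms (median 1.14). The median slope of all genes was -0.04. Shallower slopes marked intraflagellar transport, with 26 of 30 called and a median of 0.62, and the transition zone and BBSome, which gate and sort ciliary cargo, with 20 of 25 and 0.66. Centriole genes rose in 20 of 22 cases (median 0.81) and regulators in 8 of 12 (median 1.0). No member of these 8 lists fell. Without the 3 libraries high in oligodendrocyte lineage markers, 37 of 39 spoke, nexin and central pair genes, 20 of 21 dyneins and 21 of 22 centriole genes rose, and 1 regulator fell.

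Single genes followed Foxj1 closely. Ccdc65 (ENSMUSG00000003354, GRCm38 chr15:98708207-98723336), a subunit of the nexin-dynein regulatory complex, had 68.0, 60.3, 73.4 and 90.0 CPM in Rfx1_WT, 30.6 to 78.4 CPM with a median of 52.8 in Rfx2_WT and 71.1 to 85.3 CPM with a median of 75.8 in Rfx3_WT. It lay on the same side of its line mean as Foxj1 in 16 of 18 cultures, with a slope of 1.55 ± 0.11 (SE, n = 18, adjusted p = 1.30e-07) in edgeR. Lrrc56, needed for dynein arms, had 68.6, 68.9, 83.9 and 85.4 CPM in Rfx1_WT, 44.6 to 81.2 CPM with a median of 64.6 in Rfx2_WT and 64.8 to 82.1 CPM with a median of 72.4 in Rfx3_WT. Its slope was 1.03 ± 0.06 (SE, n = 18, adjusted p = 6.13e-08), with 16 of 18 cultures on the same side. Ift172, the largest subunit of the IFT-B complex, gave 1.01 ± 0.07 (SE, n = 18, adjusted p = 1.01e-07) and 14 of 18. Slopes for Ubxn11 and Casc1 were 1.22 ± 0.08 (SE, n = 18, adjusted p = 1.30e-07) and 1.57 ± 0.11 (SE, n = 18, adjusted p = 1.30e-07). Among heavy chains, Dnah1 of the inner arm gave 1.81 ± 0.16 (SE, n = 18, adjusted p = 8.61e-07). Among regulators, Foxn4 had the steepest slope, 2.45 ± 0.27 (SE, n = 18, adjusted p = 5.89e-06), followed by Cdc20b, whose locus hosts multiciliation microRNAs, with 2.03 ± 0.40 (SE, n = 18, adjusted p = 0.00147), and Mcidas with 1.87 ± 0.26 (SE, n = 18, adjusted p = 6.62e-05). Gmnc, E2f4, E2f5 and Tfdp1 were not called on Foxj1.

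Radial glia, astrocyte, BMP and stress response genes were among those that fell with Foxj1. Paqr8, a membrane progesterone receptor, had 81.6, 74.7, 69.1 and 59.3 CPM in Rfx1_WT, 68.6 to 108 CPM with a median of 78.9 in Rfx2_WT and 52.4 to 60.4 CPM with a median of 54.5 in Rfx3_WT, and its slope was -0.86 ± 0.10 (SE, n = 18, adjusted p = 1.36e-05), on the opposite side from Foxj1 in 13 of 18 cultures. Npc2, a lysosomal cholesterol carrier, fell with a slope of -0.66 ± 0.08 (SE, n = 18, adjusted p = 1.36e-05), and Klc1, a kinesin light chain, with -0.47 ± 0.06 (SE, n = 18, adjusted p = 2.19e-05). Ptms and Sumf1, which activates sulfatases, gave -0.67 ± 0.08 and -0.63 ± 0.08. Of the lists, 6 of 14 radial glia genes fell, among them Egfr, the growth factor receptor of progenitors, with -0.75 ± 0.15 (SE, n = 18, adjusted p = 0.00151) and Fabp7, a lipid carrier of radial glia, with -1.19 ± 0.32 (SE, n = 18, adjusted p = 0.0119). Astrocyte markers fell in 5 of 22 cases, among them Glul, glutamine synthetase, with -0.61 ± 0.11, and Gfap itself was not called. Genes of the unfolded protein and integrated stress response fell in 6 of 14 cases and BMP genes in 4 of 12. Without Rfx2_WT replicate 3, 2 radial glia, 2 astrocyte and 2 stress response genes fell, and 640 of all 14644 tested did. The radial glia count was 3 without Rfx2_WT replicate 5, where 1045 of all 14645 fell. The astrocyte count was 9 without Rfx3_WT replicate 6, where 1627 of all 14630 fell. Without the 3 libraries high in oligodendrocyte lineage markers the radial glia, astrocyte, stress response and BMP counts were 5, 5, 6 and 4, and 1345 of all 14556 genes fell. Of 17 microglia markers 0 were called by edgeR or DESeq2 and 0 had an unadjusted p below 0.05. Ribosomal protein genes fell in 4 of 25 cases, but leaving out 1 library moved that count by over 1.5 times for 12 of 18 libraries, down to 0 without Rfx2_WT replicate 1 and up to 14 without Rfx1_WT replicate 4. Their list mean was 0.19 in Rfx2_WT replicate 1 and -0.15 in replicate 3, relative to the line mean on the log2 scale, opposite to Foxj1. It was 0.17 in Rfx1_WT replicate 4, the culture with the most Foxj1 and the most counts of its line. In a fit with that mean as a covariate, 1628 genes rose and 1244 fell.

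Promoters of genes that rose with Foxj1 are shown because RFX factors, the proteins deleted in the sibling cultures, bind X-box motifs in front of ciliary genes. RefSeq promoter windows on GRCm38.p6 were matched by symbol for 1389 of the 1746 rising genes, and the 250 bases before the start site were searched on both strands for the palindromic X-box GTTNCCNNGGNAAC. It was found for 19 of them, and for 120 of all 27025 genes with a window (0.444%). Because fewer than 80% of the rising genes (79.6%) and of the tested genes (78.3%) had a window, a comparison of these shares is void. The 4 windows of 60 bases below belong to the motif-bearing rising genes with the smallest p, a choice made after the fit was seen, and are written 5′ to 3′ on the strand of the gene with the motif in capitals.
Ccdc151: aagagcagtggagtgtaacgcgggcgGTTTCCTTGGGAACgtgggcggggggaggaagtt
Ttc26: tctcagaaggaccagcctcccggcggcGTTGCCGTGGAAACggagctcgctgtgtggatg
Iqca: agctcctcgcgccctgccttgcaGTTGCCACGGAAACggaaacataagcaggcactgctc
Cfap298: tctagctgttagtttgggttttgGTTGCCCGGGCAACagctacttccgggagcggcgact
The Ccdc151 window, of a docking protein of outer dynein arms, was at chr9:22002635-22002694 (minus strand), with the motif ending 20 bases before the start site, and the gene's slope on Foxj1 was 1.19 ± 0.10 (SE). Ttc26, a subunit of IFT-B, had its window at chr6:38381464-38381523 (plus strand), 19 bases from the start site, and a slope of 1.07 ± 0.10. For Iqca the window was at chr1:90153500-90153559 (minus strand), 86 bases away, with a slope of 1.98 ± 0.19, and for Cfap298, an assembly factor of dynein arms, at chr16:90935001-90935060 (minus strand), 174 bases away, with 0.95 ± 0.12. A match of letters is a description and not a measured binding site.

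Foxj1 varied most in Rfx2_WT, which also had the most cultures. Fitted alone in edgeR, Rfx2_WT gave 1438 rising genes (10.5% of those tested there) and 945 falling genes (6.87%), while Rfx1_WT and Rfx3_WT alone gave 0 calls in both directions, with 936 and 618 genes at an unadjusted p below 0.05 in edgeR. Genes called in Rfx2_WT alone mostly had the same sign of slope in the lines that took no part in calling them. Of the rising ones, 1285 of 1431 (89.8%) had a positive slope in Rfx1_WT and 1309 of 1436 (91.2%) in Rfx3_WT, where 50.8% and 50.3% of all genes did. Of the falling ones, 78.3% and 83.0% had a negative slope in Rfx1_WT and Rfx3_WT, where 49.2% and 49.7% of all genes did. The median slope of axonemal dyneins was 0.99, 1.83 and 1.32 in Rfx1_WT, Rfx2_WT and Rfx3_WT alone. Without Rfx2_WT replicate 3, the culture with the most Foxj1 of its line, 1141 genes rose and 640 fell, and 14 of 22 centriole genes rose. Without Rfx2_WT replicates 1 and 2, Rfx2_WT alone gave 1425 rising (10.3%) and 1129 falling genes (8.14%), and without replicate 6 Rfx3_WT alone gave 0 and 0 in edgeR, with 1509 genes at an unadjusted p below 0.05.

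The same slope was fitted in the 16 knockout libraries, which share no sample with the wild types. Deviations of same-numbered knockout and wild-type libraries from their group means correlated at 0.139 to 0.577 in the Rfx2 line. The Rfx1 and Rfx3 lines gave -0.0651 to 0.330 and -0.331 to 0.196. The knockout and wild-type libraries were therefore not shown to be independent. As a check of the labels, the targeted gene had 52.5 to 77.1 CPM of Rfx1 in Rfx1_WT, against 19.8 to 30.3 CPM in Rfx1_KO. The other lines had 83.9 to 125 CPM of Rfx2 in Rfx2_WT, against 43.5 to 55.2 CPM in Rfx2_KO, and 156 to 205 CPM of Rfx3 in Rfx3_WT, against 25.2 to 51.8 CPM in Rfx3_KO. Here CPM was scaled over all 34 libraries. The ranges did not overlap in any line. The sources used here do not say which exons are deleted, and a gene count covers the whole gene. In wild-type cultures 1746 genes rose and 1398 fell, against 2237 (15.5%) and 1743 (12.1%) of 14449 in knockout cultures. The knockout counts were 1815 and 1063 without Rfx3_KO replicate 4, 1925 and 1159 without replicate 5 and 1683 and 968 without replicate 6 of that group. Of the genes rising in wild types, 1147 of the 1728 tested in knockouts were called in the same direction there, which is 66.4% of the wild-type and 51.3% of the knockout list, and 0 were called in the opposite one. Of the falling genes, 495 of 1397 were shared (35.4% and 28.4%), and 3 were called in the opposite direction. The slope in knockouts had the same sign for 90.0% of the rising and 74.4% of the falling genes tested there. Dynein arm assembly genes rose in 17 of 17 in wild types and in 17 of 17 in knockouts, and axonemal dyneins in 20 of 21 and 16 of 21. Cholesterol synthesis genes fell in 2 of 20 in wild types and in 16 of 20 in knockouts. The difference of the slopes, wild-type minus knockout, was tested in all 34 libraries, and edgeR called 0 of 14845 genes in either direction (0% and 0%), with 2146 at an unadjusted p below 0.05 and a lowest adjusted p of 0.135, while DESeq2 called 9 higher and 38 lower in wild types. Higher and lower calls by edgeR were 4 and 16 without Rfx3_KO replicate 3, 0 and 3 without replicate 1 of that group and 0 and 4 without Rfx1_KO replicate 1. A slope that was called in wild types and not in knockouts was therefore not shown to differ.

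Genes of the centriole machinery had the smallest p among those rising with Mcidas, while the axonemal lists had steeper median slopes. With the slope taken on Mcidas, 1606 genes rose (10.9%) and 1229 fell (8.38%) of 14670 tested. Centriole genes rose in 19 of 22 cases with a median slope of 0.41, and the list held 4 of the 5 rising genes with the smallest p that are named here. Deup1 (ENSMUSG00000039977, GRCm38 chr9:15559864-15627933), the deuterosome scaffold, had 166, 234, 259.6 and 247 CPM in Rfx1_WT, 81.6 to 271 CPM with a median of 159 in Rfx2_WT and 223 to 372 CPM with a median of 327 in Rfx3_WT. Its slope on Mcidas was 0.95 ± 0.04 (SE, n = 18, adjusted p = 2.31e-10) in edgeR, and it lay on the same side of the line mean as Mcidas in 16 of 18 cultures. Stil, a procentriole assembly factor, had 41.4, 63.7, 73.9 and 68.3 CPM in Rfx1_WT, 31.8 to 102 CPM with a median of 53.1 in Rfx2_WT and 58.5 to 90.3 CPM with a median of 76.3 in Rfx3_WT and a slope of 1.0 ± 0.05 (SE, n = 18, adjusted p = 1.78e-09). Hyls1, a centriolar protein of ciliogenesis, gave 0.91 ± 0.05 (SE, n = 18, adjusted p = 8.05e-09), Cep76, a regulator of centriole duplication, 0.66 ± 0.04 (SE, n = 18, adjusted p = 3.40e-08), and Cep152, which recruits the kinase Plk4, 0.72 ± 0.05 (SE, n = 18, adjusted p = 8.67e-08). Among regulators, Foxn4 and Cdc20b rose with 1.20 ± 0.08 and 1.13 ± 0.09, while Gmnc was not called. The axonemal lists rose too, with 36 of 39 spoke, nexin and central pair genes (median 0.56) and 17 of 21 axonemal dyneins (median 0.60). Without Rfx2_WT replicate 3 those counts were 24 and 7, and 827 genes rose and 439 fell in all, with 17 of 22 centriole genes rising. Without Rfx2_WT replicate 1, 10 axonemal dyneins rose.

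Glial genes fell where Mcidas rose. Astrocyte markers fell in 12 of 22 cases (median slope -0.37) and reactive glia genes in 10 of 17 (median -0.70). Aldh1l1, the folate enzyme used as a pan-astrocyte marker, had 220.5, 169, 157 and 172 CPM in Rfx1_WT, 98.1 to 231 CPM with a median of 171 in Rfx2_WT and 88.0 to 127 CPM with a median of 91.1 in Rfx3_WT. Rfx2_WT replicates 3 and 4 were lowest, and its slope on Mcidas was -0.71 ± 0.09 (SE, n = 18, adjusted p = 4.11e-05), on the opposite side from Mcidas in 15 of 18 cultures. Gfap had a slope of -1.18 ± 0.36 (SE, n = 18, adjusted p = 0.0276). Its call was lost without Rfx1_WT replicate 1, without Rfx3_WT replicate 6 and without the 3 libraries high in oligodendrocyte lineage markers, and the slope ranged over -1.47 to -0.84 when 1 library was left out. Bmp6, a BMP ligand, had 425, 372, 369.8 and 388 CPM in Rfx1_WT, 289 to 430.2 CPM with a median of 354 in Rfx2_WT and 362 to 386 CPM with a median of 381 in Rfx3_WT and a slope of -0.32 ± 0.04 (SE, n = 18, adjusted p = 1.41e-05). Cadm4, a cell adhesion molecule of myelinating glia, and Kcna2, a potassium channel, gave -0.60 ± 0.07 and -0.57 ± 0.07. Without Rfx2_WT replicate 3, 4 reactive glia genes fell, and 439 of all 14644 tested did. Oligodendrocyte lineage genes fell in 4 of 15 cases, in 0 without Rfx2_WT replicate 1 and in 2 without replicate 3 or replicate 4. When fitted without the 3 libraries high in that lineage, 0 fell in edgeR and 4 rose, while 10 astrocyte markers and 9 reactive glia genes fell. Over all genes, 2041 and 1555 rose and fell with Mcidas without those libraries, and 1809 and 1345 with Foxj1.

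Line by line, Mcidas calls came from Rfx2_WT and Rfx3_WT. Rfx2_WT alone gave 1529 rising genes (11.1%) and 1156 falling genes (8.41%), Rfx3_WT alone 158 (1.14%) and 541 (3.91%), and Rfx1_WT alone 0 and 0 in edgeR, with 850 genes at an unadjusted p below 0.05. Without replicate 6, Rfx3_WT alone gave 0 and 0 in edgeR, with 712 genes at an unadjusted p below 0.05, and without replicates 1 and 2 Rfx2_WT alone gave 2062 (14.9%) and 1827 (13.2%). With all its libraries, genes called as rising in Rfx3_WT alone had a positive slope in 89.2% of cases in Rfx1_WT and 89.2% in Rfx2_WT, where 52.6% and 46.4% of all genes did. Those called as rising in Rfx2_WT alone did so in 82.9% of cases in Rfx1_WT and 61.7% in Rfx3_WT. The shares of all genes were 52.6% and 53.8%. Those called as falling in Rfx2_WT had a negative slope in 70.7% of cases in Rfx1_WT and 45.7% in Rfx3_WT. Of all genes, 47.4% and 46.2% did. The median slope of centriole genes on Mcidas was 0.41, 0.45 and 0.35 in Rfx1_WT, Rfx2_WT and Rfx3_WT alone, and that of axonemal dyneins 0.19, 0.80 and -0.18. Without replicate 6 the medians in Rfx3_WT were 0.47 for centriole genes and 0.96 for axonemal dyneins.

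Foxj1 and Mcidas shared most of their spread in Rfx2_WT, and each was therefore also fitted with the other as a covariate, an addition made after the separate fits had been seen. With Mcidas as a covariate, 7.39% of genes rose with Foxj1 and 6.97% fell. Of the axonemal lists, 34 of 39 spoke, nexin and central pair genes rose, as did 17 of 21 axonemal dyneins and 14 of 17 assembly and docking genes. Of the centriole genes 3 of 22 rose. With Foxj1 as a covariate, 5.54% of genes rose with Mcidas and 4.56% fell. In that edgeR fit 12 of 22 centriole genes rose and 1 fell, while 0 of 21 axonemal dyneins and 1 of 39 spoke, nexin and central pair genes rose, with 2 of that list falling. At an unadjusted p below 0.05, 1 dynein rose and 3 fell in edgeR, and DESeq2 called 0 rising and 2 falling. Astrocyte markers fell in 13 of 22 cases with Mcidas and reactive glia genes in 11 of 17. Without Rfx2_WT replicate 3 the counts for Foxj1 were 34 spoke, nexin and central pair genes, 15 axonemal dyneins and 3 centriole genes, and 10 centriole genes rose with Mcidas. Without the 3 libraries high in oligodendrocyte lineage genes they were 16, 5 and 1 for Foxj1, 9 centriole genes rose with Mcidas, and 7 of 21 astrocyte markers and 11 of 17 reactive glia genes fell with it. The difference between the slopes on Foxj1 and on Mcidas was not itself tested.

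**Figure D3:**
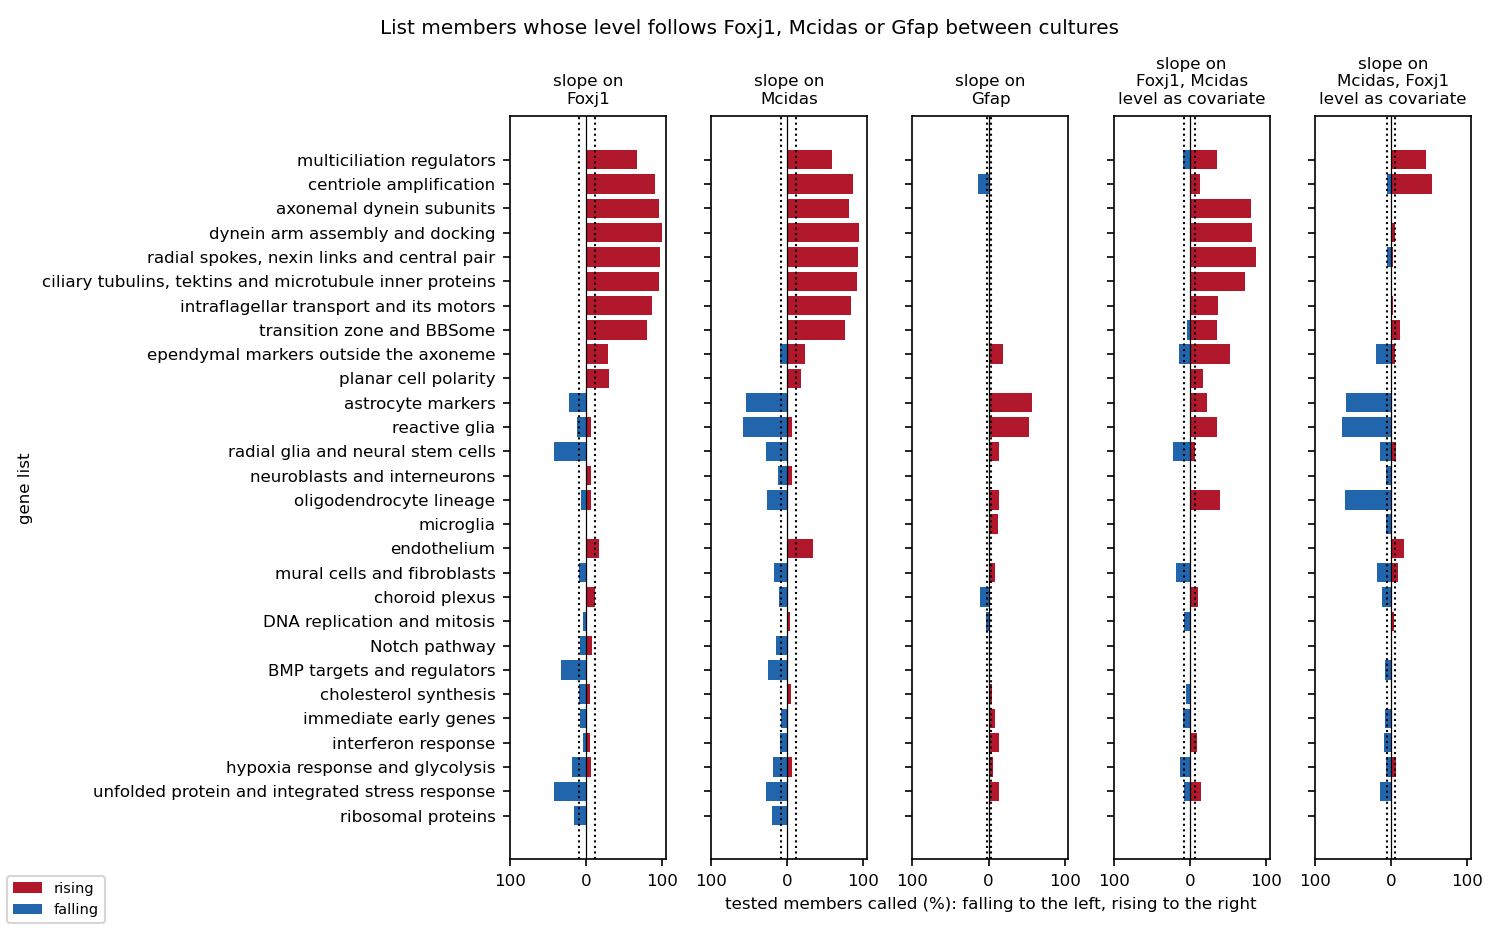
Percent of tested list members called in edgeR as rising (red, to the right) or falling (blue, to the left) with Foxj1, Mcidas or Gfap in the 18 wild-type libraries, and with Foxj1 or Mcidas when the other is a covariate. Dotted lines give the percent of all genes called, such as 11.9% rising and 9.53% falling with Foxj1. The axonemal lists and the centriole list are long red bars on both Foxj1 and Mcidas. With the other marker as a covariate, the axonemal lists keep long red bars on Foxj1 and the centriole list keeps a shorter one on Mcidas. Those covariate counts were lower without the libraries high in oligodendrocyte lineage markers, and the difference between the slopes on Foxj1 and on Mcidas was not tested.

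Astrocyte and reactive glia genes rose with Gfap between cultures, while no axonemal gene was called. Of 14670 genes tested, 504 rose with Gfap (3.44%) and 337 fell (2.3%). Astrocyte markers rose in 12 of 21 cases (median slope 0.20) and reactive glia genes in 9 of 17 (median 0.29). Of the 99 genes of the 4 axonemal lists 0 were called by edgeR or DESeq2 and 0 had an unadjusted p below 0.05, and 3 of 22 centriole genes fell. That count ran from 0 without Rfx1_WT replicate 1 to 8 without Rfx1_WT replicate 4, DESeq2 called 8 as falling, and 15 had a negative slope at an unadjusted p below 0.05. C3 (ENSMUSG00000024164, GRCm38 chr17:57203970-57228136), a complement protein raised in reactive astrocytes, had 877, 139.9, 145 and 483 CPM in Rfx1_WT, 189 to 1015 CPM with a median of 774 in Rfx2_WT and 58.3 to 735 CPM with a median of 115 in Rfx3_WT. In Rfx1_WT replicates 1 and 4, and in Rfx3_WT replicate 6, C3 and Gfap were high together. The slope of C3 was 1.36 ± 0.12 (SE, n = 18, adjusted p = 2.30e-05), with 17 of 18 cultures on the same side of the line mean as Gfap. C4b, another complement gene whose reads can be shared with its near-identical neighbour C4a, gave 0.86 ± 0.07 (SE, n = 18, adjusted p = 3.11e-06). Serpina3n, a secreted protease inhibitor and standard marker of reactive astrocytes, had 149, 5.76, 5.32 and 135 CPM in Rfx1_WT, 10.9 to 143 CPM with a median of 102 in Rfx2_WT and 2.91 to 27.6 CPM with a median of 4.29 in Rfx3_WT. Its slope of 2.02 ± 0.24 (SE, n = 18, adjusted p = 2.69e-04) was the steepest of those named on Gfap. Aqp4, the water channel of astrocyte endfeet and ependyma, had 699, 367, 366 and 551 CPM in Rfx1_WT, 573 to 963 CPM with a median of 776 in Rfx2_WT and 395 to 722 CPM with a median of 468 in Rfx3_WT and a slope of 0.39 ± 0.04 (SE, n = 18, adjusted p = 1.38e-04). Icosl and Icam1, an adhesion molecule of inflammation, gave 0.43 ± 0.04 and 0.61 ± 0.07.

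Genes falling where Gfap rose had shallow slopes. Nop58, a core protein of box C/D nucleolar particles, had a slope of -0.15 ± 0.02 (SE, n = 18, adjusted p = 4.15e-04). Wdr77, part of a methylosome that modifies splicing proteins, gave -0.16 ± 0.02 (SE, n = 18, adjusted p = 4.02e-04), and Gstm7, a member of a family of similar glutathione transferases, -0.26 ± 0.03 (SE, n = 18, adjusted p = 2.69e-04). Gstm7 had 24.4, 32.2, 32.3 and 23.3 CPM in Rfx1_WT, 17.1 to 24.5 CPM with a median of 19.8 in Rfx2_WT and 26.4 to 40.6 CPM with a median of 37.2 in Rfx3_WT. Tmem132a and Erlin1 gave -0.16 ± 0.02 and -0.14 ± 0.02. Rfx3_WT alone called 838 rising genes (6.06%), of which 59.4% had a positive slope in Rfx1_WT and 48.8% in Rfx2_WT, close to the 51.0% and 52.6% of all genes. It called 412 falling genes (2.98%). Of these, 83.0% had a negative slope in Rfx1_WT and 60.5% in Rfx2_WT, where 49.0% and 47.4% of all genes did. Rfx1_WT alone called 84 rising (0.63%) and 34 falling genes (0.255%), and Rfx2_WT alone 13 (0.0946%) and 1 (0.00727%). In Rfx3_WT alone all 17 microglia markers and 15 of 22 interferon response genes rose with Gfap, against 0 and 1 in Rfx1_WT alone and 0 and 0 in Rfx2_WT alone. Without replicate 6 edgeR called 0 genes in Rfx3_WT alone, with 1642 at an unadjusted p below 0.05, and without replicates 1 and 2 it called 0 in Rfx2_WT alone, with 3826. The highest Gfap of Rfx3_WT was in replicate 6, the culture with the most microglia and oligodendrocyte lineage RNA of that line. Reactive glia genes had median slopes on Gfap of 0.26, 0.76 and 0.17 in Rfx1_WT, Rfx2_WT and Rfx3_WT alone, and of 1.05 and 0.09 in the last pair without those libraries. The rising and falling counts were 296 and 173 without Rfx1_WT replicate 1, 326 and 191 without Rfx1_WT replicate 2, 379 and 214 without Rfx3_WT replicate 4 and 449 and 268 without the 3 libraries high in oligodendrocyte lineage markers. Without Rfx3_WT replicate 6, 465 genes rose and 205 fell, with 7 astrocyte markers rising, and leaving out any 1 library left 9 or 10 of 17 reactive glia genes rising.

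**Figure D4:**
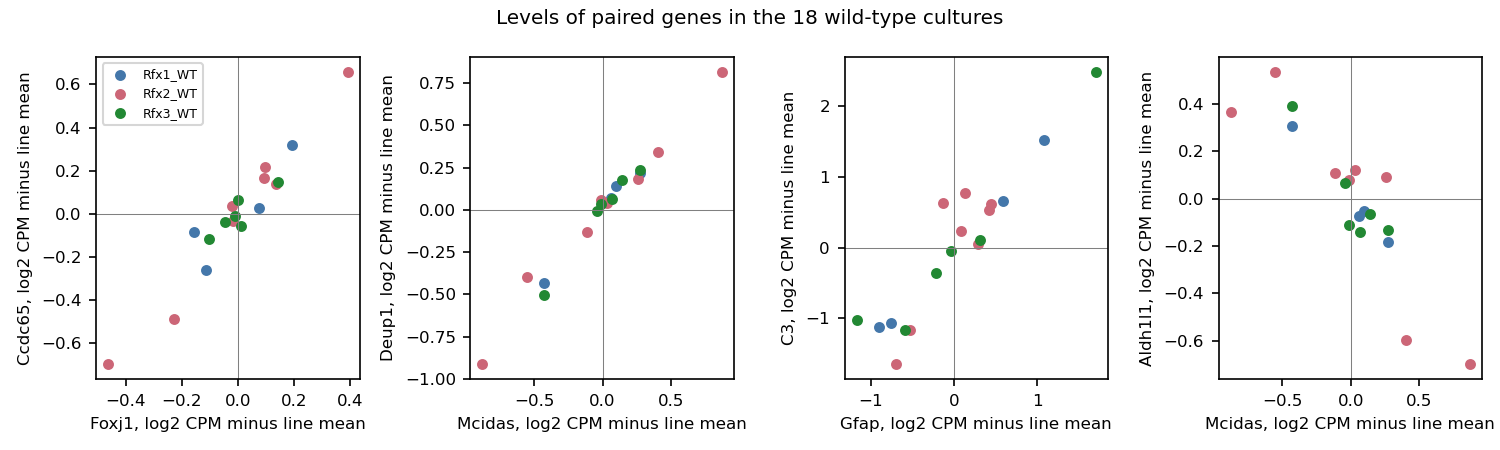
Log2 CPM minus the line mean of pairs of genes in the 18 wild-type cultures, coloured by line: Ccdc65 against Foxj1, Deup1 against Mcidas, C3 against Gfap and Aldh1l1 against Mcidas (first-named gene on the vertical axis). Points of all lines rise along a common diagonal in the first 3 panels, with Rfx2_WT spread widest on Foxj1 and Mcidas, and fall in the fourth.

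Members of other programs were also called on Foxj1, where 11.9% of all genes rose and 9.53% fell. Of the 21 ependymal markers outside the axoneme, whose median level was 51.3, 49.3 and 72.3 CPM per kb, 6 of 21 rose with Foxj1 (median slope 0.65) and 0 fell, and Dbi, a binding protein of acyl-CoA, was the list's second in level after Vim with 1004, 1084 and 1036 CPM per kb. Dynlrb2, a dynein light chain, had 119, 128, 144 and 174 CPM in Rfx1_WT, 57.7 to 157 CPM with a median of 94.9 in Rfx2_WT and 151 to 184 CPM with a median of 164 in Rfx3_WT and a slope on Foxj1 of 1.60 ± 0.17 (SE, n = 18, adjusted p = 5.06e-06). Planar cell polarity genes, which orient the ciliary beat, rose with Foxj1 in 5 of 17 cases, among them Vangl1 with 0.84 ± 0.12 (SE, n = 18, adjusted p = 5.56e-05) and Scrib with 0.30 ± 0.08, whose call was lost in 1 of 18 fits that each left out 1 library, and the count was 3 without Rfx2_WT replicate 1. Of BMP genes, a pathway that favours glial over neuronal fates in the ventricular wall, Bmp6 fell on Foxj1 with -0.59 ± 0.11, and 3 of 12 fell on Mcidas. Among hypoxia and glycolysis genes 3 of 16 fell and 1 rose with Foxj1, and 1 fell without Rfx2_WT replicate 3 or replicate 5. Eno1, an enzyme of glycolysis, had a slope of -0.57 ± 0.09 (SE, n = 18, adjusted p = 1.45e-04). In the unfolded protein list, the chaperone genes Dnajb9 and Hsp90b1 gave -0.55 ± 0.12 and -0.32 ± 0.11 on Foxj1, and the call of Hsp90b1 was lost in 13 of 18 fits that each left out 1 library. Notch genes were called in 1 and 1 of 13 cases, rising and falling with Foxj1, with Notch3, a receptor also of mural cells, at -1.08 ± 0.26 (SE, n = 18, adjusted p = 0.00669). Replication and mitosis genes gave 0 and 1 of 27, the falling one being Pcna, the sliding clamp of replication, with -0.37 ± 0.11, a call lost in 5 of 18 such fits. Cholesterol synthesis gave 1 and 2 of 20, interferon response 1 and 1 of 22, immediate early genes 0 and 1 of 12, neuroblast and interneuron genes 1 and 0 of 17, oligodendrocyte lineage genes 1 and 1 of 15, endothelial genes 1 and 0 of 6, mural cell genes 0 and 1 of 11 and choroid plexus genes 1 and 0 of 9, rising and falling with Foxj1 in that order. The 2 falling cholesterol genes were 0 or 1 in 13 of 18 fits that each left out 1 library. The Y-linked list gave 0 calls by edgeR on each of the 3 markers, with 0 genes at an unadjusted p below 0.05, and 0 calls by DESeq2. All 4 of its slopes on Foxj1 were positive, with a median of 5.63. Because these genes were either present or near 0 in a culture, the 0 calls do not show that they were unrelated to the markers.

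The 3 markers were also correlated with each other within the lines of at least 6 wild-type cultures, by two-sided exact permutation tests adjusted over 6 relations. In Rfx2_WT (n = 8) Foxj1 and Mcidas gave r = 0.960 (exact permutation p = 6.94e-04, adjusted p = 0.00417) and rho = 0.905 (exact permutation p = 0.00456, adjusted p = 0.0274). Without the 2 cultures farthest from the median of Foxj1, r was 0.855. In Rfx3_WT (n = 6) the same pair gave r = 0.312 (exact permutation p = 0.496, adjusted p = 0.595) and rho = 0.0857 (exact permutation p = 0.919, adjusted p = 0.919), and r was -0.268 without the farthest 2. Mcidas and Gfap ran in opposite directions in both lines without passing the adjusted threshold. They gave r = -0.768 (exact permutation p = 0.0259, adjusted p = 0.0778) and rho = -0.690 (exact permutation p = 0.0694, adjusted p = 0.139) in Rfx2_WT and r = -0.867 (exact permutation p = 0.0431, adjusted p = 0.0861) and rho = -0.829 (exact permutation p = 0.0583, adjusted p = 0.139) in Rfx3_WT, with r of -0.623 and -0.997 without the farthest 2. Foxj1 and Gfap gave r = -0.676 (exact permutation p = 0.0614, adjusted p = 0.0921) and rho = -0.643 (exact permutation p = 0.0962, adjusted p = 0.144) in Rfx2_WT and r = 0.115 (exact permutation p = 0.808, adjusted p = 0.808) and rho = 0.371 (exact permutation p = 0.497, adjusted p = 0.597) in Rfx3_WT, with r of -0.423 and 0.274 without the farthest 2. In Rfx3_WT without replicate 6, r was 0.678 for Foxj1 and Mcidas, -0.461 for Mcidas and Gfap and 0.214 for Foxj1 and Gfap.

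The spread between cultures of a line was small for most genes and large for a few programs. Over the 10829 genes whose mean log2 CPM was 3 or more, the median within-line SD of the log2 level was 0.108, 0.106 and 0.0826 in Rfx1_WT, Rfx2_WT and Rfx3_WT. Genes of microglia varied most among the lists with at least 5 such genes, with median SDs of 0.623, 0.586 and 1.06, and 12, 13 and 13 of 13 were among the most variable 10% of all genes. Axonemal dyneins had 0.210, 0.479 and 0.167, with 6, 17 and 9 of 20 in that share, and spoke, nexin and central pair genes 0.202, 0.417 and 0.132. Intraflagellar transport genes had 0.118, 0.174 and 0.0794. Without the 3 libraries high in oligodendrocyte lineage markers, the medians in Rfx2_WT and Rfx3_WT were 0.0947 and 0.0675 for all genes, 0.535 and 0.533 for microglia genes and 0.370 and 0.150 for axonemal dyneins. Immediate early genes, which respond quickly to stimulation and handling, had 0.406, 0.318 and 0.378, and 0.240 and 0.244 in Rfx2_WT and Rfx3_WT without those libraries. Across genes, which are not independent replicates, the SDs of 2 lines correlated with rho of 0.521, 0.513 and 0.589 for Rfx1_WT with Rfx2_WT, Rfx1_WT with Rfx3_WT and Rfx2_WT with Rfx3_WT, and 332 genes were in that most variable share in all 3 lines.

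With all libraries, the gene with the largest spread that held in every line was Serpina3n. Its SDs were 2.69, 1.38 and 1.18 in Rfx1_WT, Rfx2_WT and Rfx3_WT, and C3 followed with 1.31, 0.91 and 1.32. Without replicate 6 the SDs in Rfx3_WT were 0.461 for Serpina3n, 0.573 for C3, 0.592 for Stab1, 0.630 for Fcrls and 0.571 for Cd180. Lars2 had SDs of 1.01, 1.90 and 0.836 with all libraries, and 0.739 in Rfx3_WT without replicate 6. The order of Serpina3n, C3 and Lars2 by smallest SD thus rests on that culture. Without replicates 1 and 2 that of Thsd4 in Rfx2_WT was 0.690. Stab1, a scavenger receptor of macrophages, had SDs of 0.92, 0.84 and 1.18, and its level was 20.1, 29.3, 36.7 and 8.55 CPM in Rfx1_WT, 112 to 520.2 CPM with a median of 184 in Rfx2_WT and 12.6 to 119 CPM with a median of 20.5 in Rfx3_WT. Lyz2, the lysozyme of myeloid cells, had SDs of 1.04, 0.98 and 0.77 and levels of 51.8, 97.1, 102 and 21.7 CPM in Rfx1_WT, 159.8 to 833 CPM with a median of 409 in Rfx2_WT and 29.3 to 127 CPM with a median of 43.3 in Rfx3_WT. In Rfx2_WT, replicates 1 to 4 held the higher Lyz2 values and replicates 5 to 8 the lower ones. Lars2, a mitochondrial leucyl-tRNA synthetase whose locus in the mouse genome also holds a stretch resembling ribosomal RNA, so that its count is uncertain, had 508, 769, 707 and 168 CPM in Rfx1_WT, 40.2 to 1924 CPM with a median of 59.2 in Rfx2_WT and 767 to 4146 CPM with a median of 1448 in Rfx3_WT. Its highest value in Rfx2_WT, 1924 CPM in replicate 7, stood beside 40.2 CPM in replicate 8. By line, Steap4, a metalloreductase raised in reactive glia, was among the most variable in Rfx1_WT (SD 1.27), Thsd4 in Rfx2_WT (SD 1.28), and the microglial Fcrls and the B-lymphocyte and myeloid receptor Cd180 in Rfx3_WT (SDs 1.24 and 1.19). Fcrls had 89.0 CPM in Rfx3_WT replicate 6, and its range over the 6 cultures was 8.61 to 89.0 CPM with a median of 14.9 in Rfx3_WT.

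**Figure D5:**
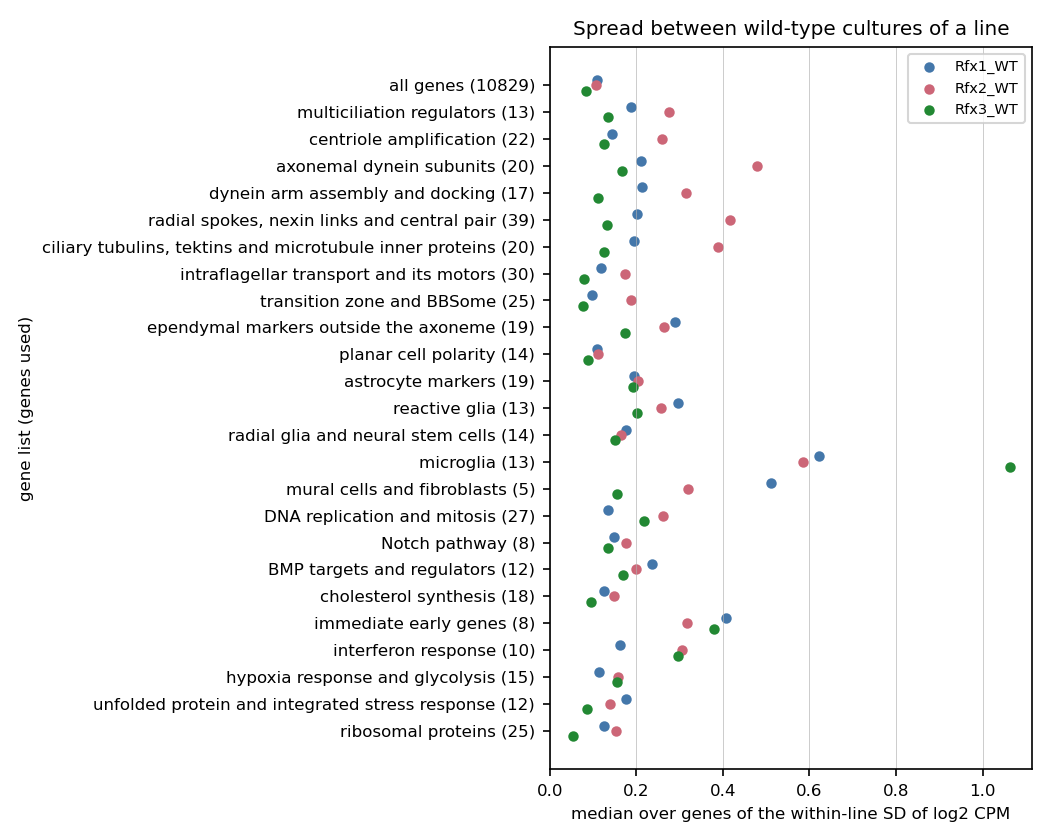
Median over the genes of each list of the within-line SD of log2 CPM (horizontal axis, from 0), for lists with at least 5 genes at a mean log2 CPM of 3 or more, with a point for each line of wild-type cultures. Microglia genes lie farthest to the right in each line, and the axonemal lists lie right of all genes most clearly in Rfx2_WT.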

How the data were processed

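Per the labels' protocols, total RNA was extracted with RNeasy columns and libraries were made by the TruSeq RNA-seq protocol. The authors deposited 1 table of raw counts per gene, for 21647 genes and 34 samples. Per the submitters' processing notes, CASAVA 1.8.2, STAR 2.4 and featureCounts 1.4.6 were used on GRCm38. Whether counting used strand is not given in the sources used here, so overlapping antisense genes cannot be told apart. Symbols, coordinates and exon lengths came from GENCODE M21, which matched 21583 genes by gene identifier. The other 64 held at most 0.0417% of a library's counts. Every column was mapped to a sample by its name.

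Libraries were scaled by TMM in edgeR 4.0.16 (R 4.3.3). Genes with too few counts were left out (filterByExpr, minimum count 10 and minimum total 15), and slopes were tested with the quasi-likelihood F test and Benjamini-Hochberg adjustment at 0.05 over all genes tested. The marker's log2 CPM was centred within its line, line was a term, and the marker left its own fit. The difference between wild-type and knockout slopes was an interaction term. Correlations used exact permutation tests. Within-line SDs used log2 CPM with a prior count of 2. The fit was also run on counts simulated with known slopes, each gene apart. Such counts lack further covariation between genes, and no result here rests on that run. The gene lists (29 lists, 532 symbols, of which 3 were unmatched) and members were chosen with earlier results of these data known. Named genes were the markers and regulators, the 5 called genes with the smallest p per marker and direction, 3 genes per list by level or p, and the most variable genes, in the last 3 cases mostly at a mean log2 CPM of at least 3. Gm and Rik genes were left out of them, and 1 gene that falls with Mcidas is not reported here. Further genes are named as chosen after their values were seen. No pair of the 49 wild-type replicate pairs agreed within sampling noise (chi-square per degree of freedom at least 4.66), and none was merged. Alternatives were DESeq2 1.42.0, limma-voom (limma 3.58.1), other scalings, filters, covariates and left-out libraries.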

Additional observations from a re-analysis of the deposited data

Results flagged for a closer look

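A single culture lay far from the others of its line, by Dixon's ratio at its 95% limit, in 10 of the 114 combinations examined. Each combination was a line (Rfx1_WT, Rfx2_WT or Rfx3_WT) with a gene or list mean, and all 10 were in Rfx2_WT or Rfx3_WT. Chance gives about 1 in 20 where nothing was picked for its spread, but Pdgfra, Serpina3n and C3 were picked with their values known, so the count is not read against that share. Most of these values came from Rfx3_WT replicate 6. On the log2 scale relative to the line mean, its list means were 0.553 for astrocyte markers, 0.749 for reactive glia, 2.27 for the oligodendrocyte lineage and 0.741 for the interferon response, each far above the other 5 cultures. Its Pdgfra level was 102 CPM, with the next culture at 4.01 CPM, Serpina3n was 27.6 CPM, with the next at 6.59 CPM, and C3 was 735 CPM, with the next at 141 CPM. Its Deup1 level was low at 223 CPM, with the next culture at 315 CPM. The other 2 values were small in size: the planar cell polarity mean of Rfx2_WT replicate 1 was -0.131, and the choroid plexus mean of Rfx3_WT replicate 2 was -0.222. Which of these values moved with the RNA of other cell types was not tested.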

How the results depend on the processing

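Slopes of named genes kept their direction and their side of the threshold in 2713 of the gene and setting combinations run, lost the call in 462 and changed sign in 15. No paired analysis of the wild types as a design was possible in the sense of shared animals: nothing ties same-numbered libraries, and their deviations correlated at -0.151 to 0.244 between Rfx1_WT and Rfx2_WT and at -0.368 to 0.159 between Rfx2_WT and Rfx3_WT. With the replicate block, 638 genes rose and 216 fell with Foxj1, 125 and 20 with Mcidas, and 7 and 0 with Gfap (1587 at an unadjusted p below 0.05). Same-numbered knockout and wild-type deviations correlated at -0.0651 to 0.330 in the Rfx1 line, 0.139 to 0.577 in the Rfx2 line and -0.331 to 0.196 in the Rfx3 line, and the block left 0 calls for the slope difference. With the rank of the marker in place of its level, 1001 and 589 genes rose and fell with Foxj1 and 927 and 590 with Mcidas. DESeq2 gave 654 genes falling with Gfap, and 9 higher and 38 lower for the wild-type minus knockout slope.

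Single lines gave 0 and 0 calls with Foxj1 in Rfx1_WT and in Rfx3_WT, 0 and 0 with Mcidas in Rfx1_WT, 158 and 541 with Mcidas in Rfx3_WT, and with Gfap 84 and 34 in Rfx1_WT, 13 and 1 in Rfx2_WT and 838 rising in Rfx3_WT. The following were chosen after seeing the data. With Mcidas as a covariate 1084 genes rose with Foxj1, 1003 rose without Rfx2_WT replicate 3, and 693 rose and 711 fell without the 3 libraries high in oligodendrocyte lineage genes. With Foxj1 as a covariate 813 rose and 669 fell with Mcidas, 726 and 601 without Rfx2_WT replicate 3, 943 and 811 without the 3 libraries, and 785 and 752 with Gfap. In Rfx3_WT without replicate 6 edgeR gave 0 and 0 calls on each marker, and in Rfx2_WT without replicates 1 and 2 it gave 0 and 0 on Gfap, with 3826 genes at an unadjusted p below 0.05 there. With the oligodendrocyte lineage mean as a covariate 1964 genes fell with Mcidas.

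Leaving out each library in turn gave 1141 to 1871 rising and 640 to 1627 falling genes with Foxj1, 827 to 1895 and 439 to 1712 with Mcidas (lowest without Rfx2_WT replicate 3 in all 4 cases), 296 to 580 and 173 to 425 with Gfap (lowest without Rfx1_WT replicate 1), and 1683 to 2648 and 968 to 1971 with Foxj1 in knockouts (lowest without Rfx3_KO replicate 6). For the slope difference it gave 0 to 4 and 0 to 16. The r of Foxj1 and Mcidas ranged over 0.935 to 0.988 in Rfx2_WT, where without replicate 1 it missed the threshold, and -0.387 to 0.678 in Rfx3_WT (-0.387 without replicate 3). That of Foxj1 and Gfap ranged over -0.776 to -0.535 and -0.0904 to 0.412 (-0.0904 without Rfx3_WT replicate 4), and that of Mcidas and Gfap over -0.859 to -0.670 and -0.975 to -0.461, passing the threshold without Rfx2_WT replicate 7 and without Rfx3_WT replicate 3. The median SD ranged over 0.0933 to 0.114 in Rfx1_WT, 0.0958 to 0.111 in Rfx2_WT and 0.0675 to 0.0850 in Rfx3_WT.

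Slopes that changed sign were on Foxj1 Rps4x (0.25, Rfx1_WT alone) and Sqle (-0.049, Rfx3_WT alone, and -0.055 there without replicate 6), and on Mcidas Rfx2 (-0.018, Rfx3_WT alone). With Mcidas as a covariate Cdc20b gave -0.50 and Deup1 -0.062 on Foxj1, and -0.57 and -0.057 without Rfx2_WT replicate 3, where Bmp6 gave 0.0025. With Mcidas as a covariate and the 3 libraries left out instead, Cdc20b gave -1.13, Dlx2 -0.37, Ly6c1 -3.38, Bmp6 0.18, Rsad2 -0.56 and Rps4x 0.29. None of these was called, and the cause was not tested. Genes near 1 CPM, such as most neuroblast and endothelial markers, are limited by depth.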

Other observations

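Within Rfx2_WT the microglia genes split the cultures by number. The list mean, relative to the line mean on the log2 scale, was 0.80, 0.30, 0.37 and 0.43 in replicates 1 to 4 and -0.78, -0.51, -0.34 and -0.27 in replicates 5 to 8. Lyz2, the myeloid lysozyme, had 833, 568, 676 and 779 CPM in replicates 1 to 4 and 159.8, 199, 251 and 227 CPM in replicates 5 to 8. The split was not confined to these genes. Library totals were 29.1 M to 32.2 M counts in replicates 1 to 4 and 36.4 M to 40.1 M in replicates 5 to 8. Gmnc had 164 to 186 CPM in replicates 1 to 4 and 229 to 255 CPM in replicates 5 to 8. The mean of replication and mitosis genes was 0.22, 0.30, 0.10 and -0.03 in the former and -0.14, -0.19, -0.10 and -0.15 in the latter. No label ties these numbers to a date or a dissection. Foxj1 did not follow the same split, with 814, 1198, 1473 and 1199 CPM in replicates 1 to 4 and 959, 1107, 1110.0 and 1232 CPM in replicates 5 to 8. With the microglia mean as a covariate 1923 genes rose and 1760 fell with Foxj1. With library depth as a covariate 1699 rose and 1454 fell with Foxj1, and 1589 and 1303 with Mcidas.

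Cultures with Y-linked expression occurred in all lines. With the Y-linked mean as a covariate 1599 genes rose and 1100 fell with Foxj1, 1576 and 1194 with Mcidas and 548 and 374 with Gfap. The microglia and Y-linked covariates were chosen after seeing the data.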
